A study of Gallus gallus with 9 samples.

Results

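The respiratory chain genes of the chick embryo were followed in 2 fractions of circulating blood cells and in the heart. The set held 87 nuclear genes, those with an annotated symbol that starts with NDUF, SDHA to SDHD, UQCR, ATP5, or COX and a digit, out of 13009 symbols on the Affymetrix chicken array. Each gene was read from 1 probe set, the one with the highest mean signal on the blood arrays, out of 154 probe sets of these genes and 38439 probe sets in all. Blood was drawn from the ventricles of chick embryos at E4 and E6 (embryonic day 4 and 6) and spun through a density gradient, whose lower layer is the RBC (red blood cell) fraction and whose upper layer is the nRBC (non red blood cell) fraction. RNA of separate pools of embryos gave 2 arrays for each stage and fraction, 8 blood arrays in all, and 1 array was made from embryonic heart. The heart array is E6 by its title and E4 in a column heading of the deposited table, and it is called the heart array here. No treatment or genetic change was stated for the embryos of any group.

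The respiratory chain sits in the inner mitochondrial membrane. Complexes I and II pass electrons from NADH and succinate to ubiquinone, complex III hands them to cytochrome c, complex IV gives them to oxygen, and the proton gradient made on the way drives complex V, the ATP synthase. A few catalytic subunits are encoded in mitochondrial DNA, and all other subunits, with the factors that assemble them, are made from nuclear genes. Red blood cells of birds keep their nucleus and carry mitochondria, unlike those of mammals, and heart muscle is among the tissues richest in mitochondria.

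The 87 genes fell into 33 of complex I, 2 of complex II, 8 of complex III, 9 of complex IV, 13 of complex V and 22 assembly factors. The 2 of complex II were SDHA and SDHD, while SDHB and SDHC were not in the set. Most of the chain was detected in both fractions. By the detection call deposited with each signal, 68 of the 87 genes (78.2%) were Present on all 8 blood arrays, against 17.2% of all probe sets. The probe set of each gene was chosen for its high blood signal, which favours Present calls, and of all 154 probe sets of these genes 83 (53.9%) were Present on all blood arrays. Only COX14, COX7B and SDHAF1 were Present on no blood array, where 52.2% of all probe sets were Present on none, so no difference is given for them. All 8 genes of complex III and both of complex II were Present on every blood array, as were 27 of 33 of complex I, 7 of 9 of complex IV, 10 of 13 of complex V and 14 of 22 assembly factors. Between 72 and 82 of the genes were Present on each blood array, and 81 on the heart array.

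The arrays differed in depth of signal and in a measure of RNA quality. Median signals ran from 11.4 to 33.3, and 22.4% to 36.0% of all probe sets were Present on a blood array and 40.5% on the heart array. The GAPDH controls are probed at both ends of the transcript, and their 3′ over 5′ signal, a measure of RNA quality that grows with degradation, was 9.44 to 11.1 on the RBC arrays. It was 5.20 and 4.22 on the E4 nRBC arrays, 12.7 and 5.99 on the E6 nRBC arrays and 2.08 on the heart array. The study amplified the RNA before hybridization, and the part of that step in this ratio was not tested. Of the 15 erythroid marker genes, 14 were Present on every blood array, and their summed log2 signal was 16.24 to 16.47 on RBC arrays and 15.96 to 16.46 on nRBC arrays, so the nRBC fraction carried red cell RNA as well. On the heart array 13 of the 15 erythroid markers were Present and the sum was 13.31, so the heart sample held red cell RNA too. The median nRBC minus RBC difference of these 15 markers was -0.67, on the same side as most chain genes. The part of RNA quality, of array scale and of these cell types in the values that follow was not tested. In these bulk samples, fewer cells of a type and less RNA per cell cannot be told apart.

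**Figure D1:**
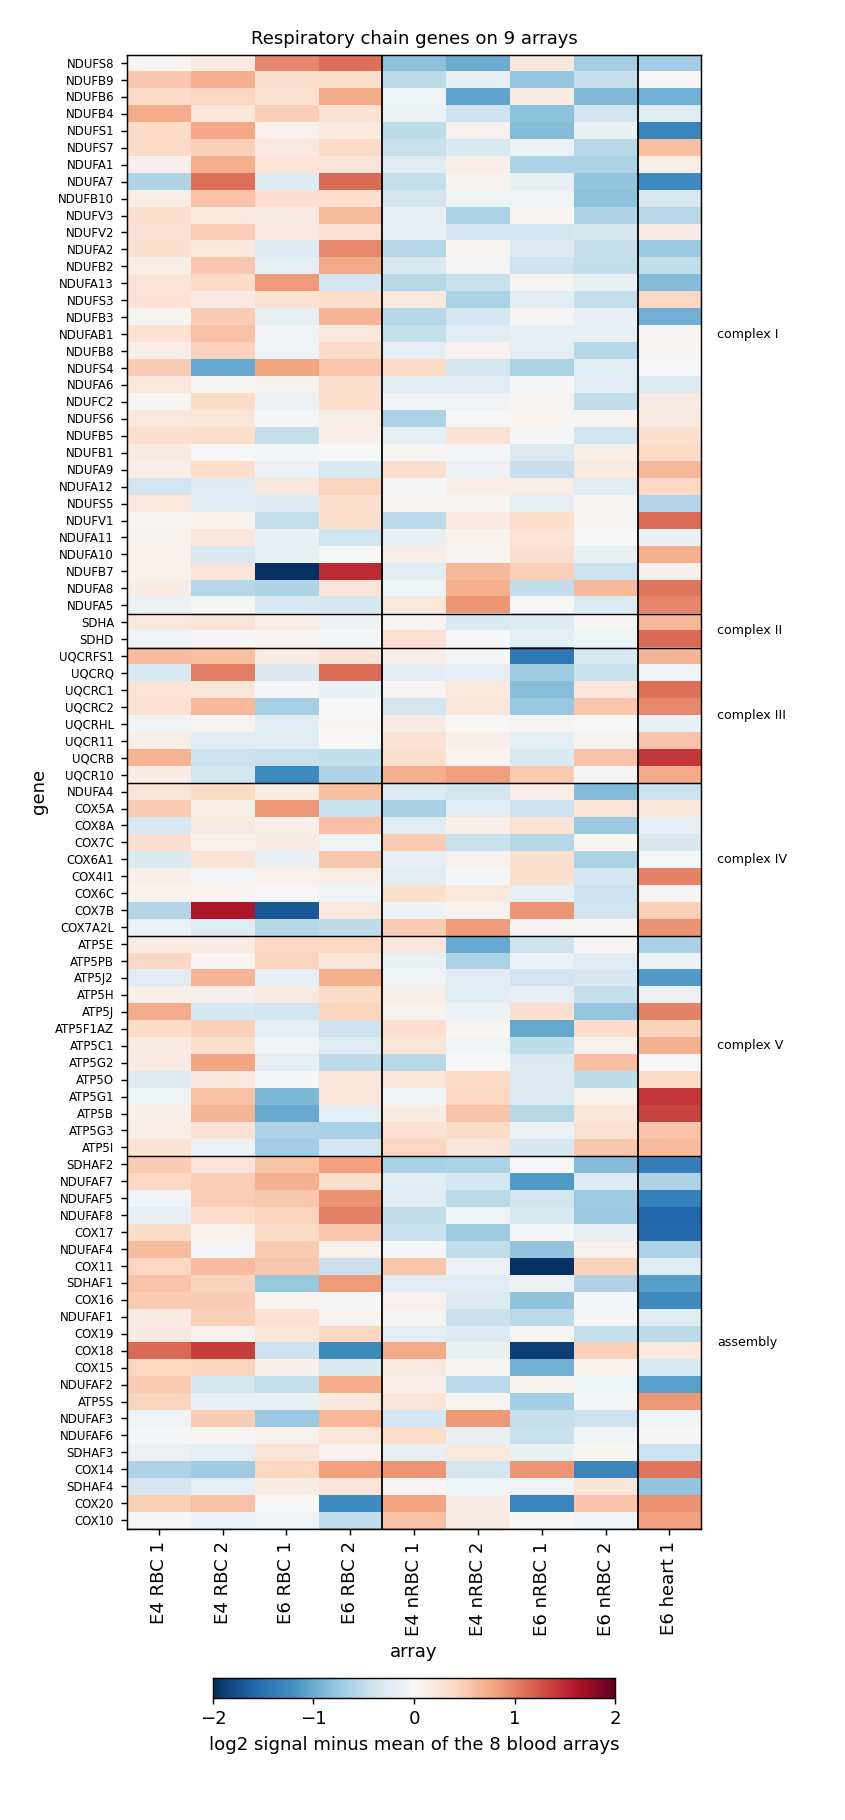
Heat map of the 87 genes (rows, by complex) on the 9 arrays (columns). Within a class the rows run from the lowest nRBC minus RBC difference at the top to the highest. Colour gives the log2 signal of a gene minus its own mean over the 8 blood arrays, from -2 (blue) to 2 (red), clipped at both ends. The upper rows of a class are thus redder on the RBC arrays by their order alone. UQCRB, ATP5G1 and ATP5B are deep red on the heart array.

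No gene of the chain passed the test between the fractions, and most differences were under 1 log2 unit. The median of nRBC minus RBC over the 87 genes was -0.28 on the log2 scale, beside -0.20 over all probe sets and -0.22 over those Present on all blood arrays. With limma over all probe sets, 0 of the 87 genes passed an adjusted p of 0.05 in either direction, where 4.56% of all probe sets were higher in nRBC and 0.809% lower. The lowest adjusted p was 0.129 (limma). At an unadjusted p under 0.05, 7 genes were lower in nRBC and 1 was higher, beside 9.39% and 10.2% of all probe sets. These calls depended on the variance model and on how low signals were treated, as 7 genes were lower with 16 added to each signal (2.57% of all probe sets), 5 with dim probe sets removed (4.84%), 2 with an intensity trend (1.83%) and 3 by the methods' t-test after adjustment (1.06%). The SD of a gene within a fraction had a median of 0.29 over the RBC and 0.34 over the nRBC arrays.

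Most of the genes lay on the RBC side of 0. The nRBC mean was below the RBC mean for 66 of 87 genes (75.9%), against 59.0% of all probe sets and 64.1% of those Present on all blood arrays. At E4 the count was 62 and at E6 65, with 52 genes below 0 at both stages, 12 above 0 at both and 23 of opposite sign. For 19 genes (21.8%) every nRBC array was below every RBC array, against 6.79% of all probe sets and 13.4% of those Present on all blood arrays. Only COX7A2L had every nRBC array above every RBC array, where 7.97% of all probe sets and 8.07% of those Present on all blood arrays did. The 95% interval lay within 1 log2 unit of 0, a change of 2-fold, for 19 genes (21.8%), against 4.62% of all probe sets and 16.2% of those Present on all blood arrays. Without quantile normalization, when the arrays keep their different scales, 0 genes separated the fractions in either direction and the median difference was -0.04, beside 0.02 over all probe sets. In that setting only 1.64% of all probe sets had every nRBC array below every RBC array.

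**Figure D2:**
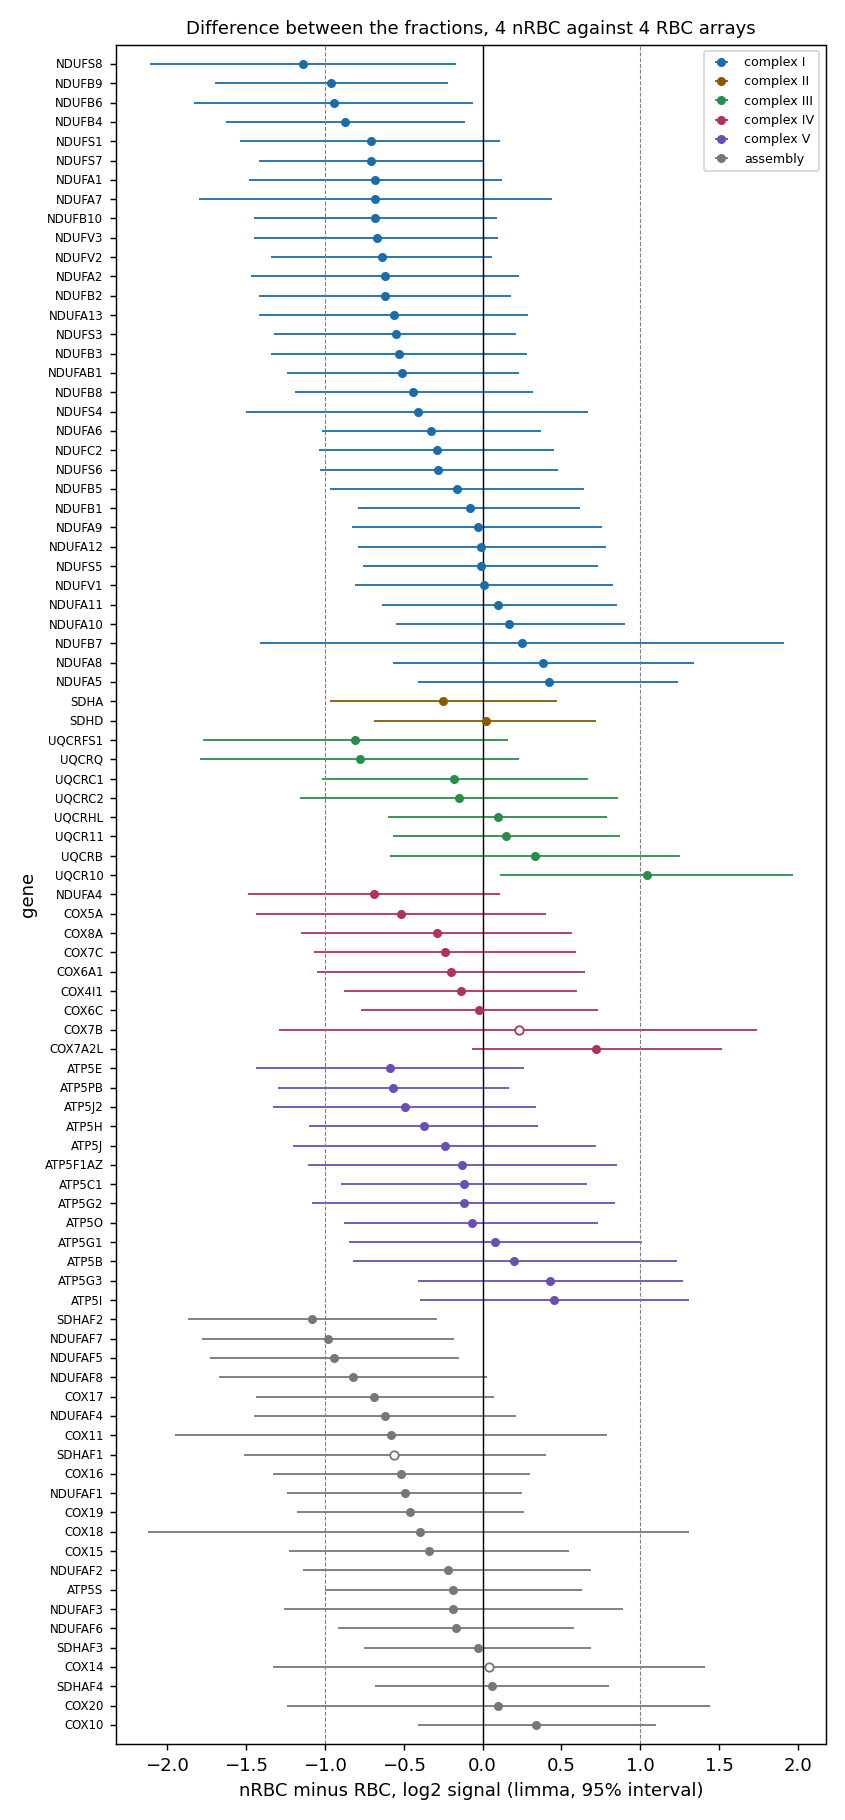
Difference nRBC minus RBC in log2 signal for each of the 87 genes (points, coloured by class) with its 95% interval from limma over 4 against 4 arrays. White-filled points mark COX14, COX7B and SDHAF1, which were Present on no blood array, ATP5E and ATP5J were Present on no RBC array, and the dashed lines are at -1 and 1. Points run from -1.14 (NDUFS8) to 1.04 (UQCR10), and 19 of the intervals lie wholly between the dashed lines.

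The class medians lay on the RBC side or close to 0, and complex I had the lowest with all arrays in the fit. The median difference was -0.51 over complex I, with -0.68 over its 6 core subunits and -0.41 over its 27 accessory subunits, and -0.43 over the assembly factors. It was -0.12 over complex II, -0.03 over complex III, -0.20 over complex IV and -0.12 over complex V. Without quantile normalization these medians became -0.21 for complex I, 0.01 for the assembly factors, 0.09, 0.08 and -0.03 for complexes II, III and IV, and -0.02 for complex V, so that complexes II and III and the assembly factors turned sign. With median scaling they were -0.48 for complex I, -0.26 for the assembly factors, -0.18, -0.19 and -0.30 for complexes II, III and IV, and -0.29 for complex V, beside -0.25 over all probe sets, so that only complex I lay below -0.30. Leaving out 1 array at a time gave complex I medians between -0.54 and -0.39, and the other classes moved with single arrays too. Complex I was then not always the lowest. Without E4 nRBC replicate 1 it was -0.45 and the assembly factors -0.53. Without E6 RBC replicate 2 it was -0.39 and the assembly factors -0.45. Complex III turned sign without E4 RBC replicate 1 (0.01), E4 RBC replicate 2 (0.08) or E6 nRBC replicate 1 (0.09). Complex V ran from -0.22 (without E6 RBC replicate 2 or E4 nRBC replicate 1) to 0.00 (without E6 nRBC replicate 1), complex IV from -0.27 to -0.05 (without E6 nRBC replicate 2) and complex II from -0.19 to -0.06 (without E6 nRBC replicate 1). The assembly factors ran from -0.53 to -0.27, the latter without E6 nRBC replicate 1. No test was made of the difference between complexes.

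Complex I held 10 of the 19 genes without overlap, which is 30.3% of its 33 genes, beside 21.8% of the 87 genes. The share was 6.79% over all probe sets and 13.4% over those Present on all blood arrays. The 10 genes were the core subunits NDUFS1, NDUFS7 and NDUFV2, which carry iron-sulfur clusters in mammals, NDUFV3, and the accessory subunits NDUFA6, NDUFAB1, NDUFB10, NDUFB4, NDUFB6 and NDUFB9. NDUFB9, a subunit of the membrane arm, read 11.13 and 11.31 on the E4 RBC arrays, 10.91 and 10.94 on the E6 RBC arrays, 10.06 and 10.43 on the E4 nRBC arrays and 9.81 and 10.13 on the E6 nRBC arrays. All 4 RBC arrays lay above all 4 nRBC arrays, and the spread within either fraction was smaller than the gap between their means. The difference was -0.96 (SE 0.33, 95% interval -1.70 to -0.22), or 1.95-fold lower, with an adjusted p of 0.148 (limma).

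NDUFS8, a core iron-sulfur subunit, had the largest difference of the 87 genes. It read 9.04 and 9.19 on the E4 RBC arrays, 9.97 and 10.11 on the E6 RBC arrays, 8.18 and 8.02 on the E4 nRBC arrays and 9.23 and 8.32 on the E6 nRBC arrays. At each stage the RBC arrays were the higher, but E6 nRBC replicate 1 lay above both E4 RBC arrays, so the pooled groups overlapped. The difference was -1.14 (SE 0.43, 95% interval -2.11 to -0.17), 2.21-fold lower, with an adjusted p of 0.186 (limma).

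The other core subunits gave smaller and in part tighter differences. NDUFV2 was 10.09 ± 0.13 in RBC and 9.45 ± 0.11 in nRBC (SD, n = 4 each), a difference of -0.64 with an adjusted p of 0.296 (limma). NDUFS7 was 9.35 ± 0.12 and 8.63 ± 0.18, a difference of -0.71 with an adjusted p of 0.255 (limma). Both differences were larger than the SD of either fraction, and both genes were among the 3 genes that the methods' t-test called after adjustment, with NDUFB9. NDUFS1, the largest subunit of complex I, read 11.53, 11.91, 11.22 and 11.33 in RBC (E4, then E6) and 10.63, 11.22, 10.28 and 11.01 in nRBC. Its highest nRBC array touched its lowest RBC array to within rounding, and a further probe set of the gene, Present on all blood arrays, also gave -0.71. NDUFV1, which binds the flavin that accepts electrons from NADH, differed by 0.01 with a 95% interval of -0.81 to 0.83.

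Among the accessory subunits, NDUFB6 (-0.94) and NDUFB4 (-0.87) had the next lowest differences. NDUFB4 was Present on only 3 of 4 RBC arrays and 2 of 4 nRBC arrays. A further NDUFB4 probe set, dimmer but Present on all blood arrays, gave -0.52 with an adjusted p of 0.483 (limma). NDUFB10 and NDUFV3 differed by -0.68 and -0.67, and NDUFAB1, the mitochondrial acyl carrier protein, by -0.51. NDUFA6 was the tightest of those without overlap, at 10.42 ± 0.12 in RBC and 10.10 ± 0.10 in nRBC (SD, n = 4 each). Closer to 0, NDUFS6 differed by -0.28 (95% interval -1.03 to 0.48) and NDUFA12 by -0.01 (-0.79 to 0.78). NDUFA6, NDUFAB1, NDUFB10, NDUFB4, NDUFB6, NDUFS7, NDUFV2, NDUFV3 and COX19 were singled out after their values were seen.

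In complex II, which is also the succinate dehydrogenase of the citric acid cycle, the 2 genes in the set differed little between the fractions. SDHA, its flavoprotein, read 11.43, 11.48, 11.34 and 11.12 in RBC and 11.27, 10.93, 10.94 and 11.25 in nRBC, a difference of -0.25 (95% interval -0.97 to 0.47). SDHD, a membrane anchor, was 9.41 ± 0.06 in RBC and 9.42 ± 0.21 in nRBC (SD, n = 4 each), a difference of 0.02 (95% interval -0.69 to 0.72). For both genes the interval excluded a change of 2-fold in either direction.

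By the chosen probe sets, complex III held the only gene with an unadjusted p under 0.05 on the nRBC side. UQCR10, a small subunit, read 10.79 and 10.28 on the E4 RBC arrays, 9.36 and 10.04 on the E6 RBC arrays, 11.35 and 11.48 on the E4 nRBC arrays and 11.16 and 10.66 on the E6 nRBC arrays. E4 RBC replicate 1 lay above E6 nRBC replicate 2, and within each stage the nRBC arrays were the higher. The difference was 1.04 (SE 0.41, 95% interval 0.11 to 1.97), 2.06-fold higher, with an adjusted p of 0.203 (limma). A further probe set of UQCR10, Present on 6 blood arrays, gave 0.25 with an adjusted p of 0.763 (limma).

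UQCRFS1, the Rieske iron-sulfur protein, went the other way. It read 8.0, 7.98, 7.52 and 7.63 in RBC and 7.51, 7.36, 5.95 and 7.07 in nRBC, with E6 nRBC replicate 1 far below the rest. The groups did not overlap, and the difference was -0.81 (95% interval -1.77 to 0.16, adjusted p = 0.340, limma). The core protein UQCRC1 differed by -0.18 (-1.02 to 0.67) and UQCRHL, annotated as like the hinge protein, by 0.10 (-0.60 to 0.79).

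In complex IV, COX7A2L was the single gene with all nRBC arrays on top. The protein joins complexes III and IV into supercomplexes in the mouse. It read 9.59 and 9.47 on the E4 RBC arrays, 9.14 and 9.20 on the E6 RBC arrays, 10.22 and 10.57 on the E4 nRBC arrays and 9.77 and 9.73 on the E6 nRBC arrays. The fractions were set apart by a narrow gap, and in each fraction the E4 arrays were above the E6 arrays. The difference was 0.72 (SE 0.35, 95% interval -0.07 to 1.52), with an adjusted p of 0.302 (limma).

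None of the genes with tissue isoforms passed between the fractions (limma). COX4I1, the common form of subunit 4, was 11.19 ± 0.08 in RBC and 11.05 ± 0.29 in nRBC (SD, n = 4 each), a difference of -0.14 (95% interval -0.88 to 0.60). COX6A1, the form of subunit 6A found outside muscle in mammals, differed by -0.20 (-1.05 to 0.65) and COX8A by -0.29 (-1.15 to 0.57). COX6C was 11.93 ± 0.06 in RBC and 11.91 ± 0.34 in nRBC. NDUFA4, once counted with complex I and now with complex IV, was 11.56 ± 0.20 in RBC and 10.87 ± 0.41 in nRBC without overlap (difference -0.69, 95% interval -1.49 to 0.11, adjusted p = 0.323, limma).

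In complex V the stalk subunit ATP5PB lay on the RBC side, and the catalytic and ring subunits gave values on either side of 0. ATP5PB, part of the stator that holds the catalytic head, read 11.59, 11.22, 11.62 and 11.42 in RBC and 11.04, 10.55, 11.06 and 10.93 in nRBC. All 4 nRBC arrays were below all RBC arrays, and the difference was -0.57 (95% interval -1.30 to 0.17, adjusted p = 0.376, limma). The genes ATP5G1, ATP5G2 and ATP5G3 encode the same mature ring subunit in mammals. ATP5G1 differed by 0.08 (-0.85 to 1.01) and ATP5G3 by 0.43 (-0.41 to 1.27). ATP5G2 was Present on only 2 blood arrays. The alpha subunit gene ATP5F1AZ differed by -0.13 (-1.11 to 0.85) and the beta subunit gene ATP5B by 0.20 (-0.82 to 1.23). The inhibitor gene ATPIF1, outside the set by its name, differed by -0.18 with an adjusted p of 0.833 (limma). The chosen probe sets of ATP5E and ATP5J were Present on no RBC array, and no difference is given for them. A further ATP5J probe set, Present on 4 blood arrays, was dim, with means of 1.89 in RBC and 4.31 in nRBC. It gave a difference of 2.41 (SE 0.66) with an adjusted p of 0.0739 (limma).

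The assembly factors held 6 of the 19 genes without overlap, COX17, COX19, NDUFAF1, NDUFAF5, NDUFAF7 and SDHAF2. That is 27.3% of the 22 assembly factors, beside 21.8% of the 87 genes and 13.4% of probe sets Present on all blood arrays. SDHAF2, which places the flavin on SDHA, had the lowest adjusted p of the 87 genes. It read 8.93 and 8.67 on the E4 RBC arrays, 8.99 and 9.23 on the E6 RBC arrays, 7.77 and 7.78 on the E4 nRBC arrays and 8.41 and 7.55 on the E6 nRBC arrays. E6 nRBC replicate 1 was the closest to the RBC arrays and still below them all. The difference was -1.08 (SE 0.35, 95% interval -1.87 to -0.29), 2.11-fold lower, with an adjusted p of 0.129 (limma). A further SDHAF2 probe set, Present on all blood arrays, gave -1.38 with an adjusted p of 0.0693 (limma).

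NDUFAF5 and NDUFAF7 modify core subunits of complex I as it is built. NDUFAF5 read 8.11, 8.66, 8.71 and 9.06 in RBC and 7.92, 7.62, 7.80 and 7.44 in nRBC, a difference of -0.94 (95% interval -1.73 to -0.15, adjusted p = 0.181, limma). NDUFAF7 read 6.99, 7.07, 7.28 and 6.93 in RBC and 6.37, 6.22, 5.44 and 6.31 in nRBC, a difference of -0.98 (95% interval -1.78 to -0.18, adjusted p = 0.169, limma). Both were lower on every nRBC array, but NDUFAF7 was Present on only 2 RBC arrays and 3 nRBC arrays. NDUFAF1 was 11.40 ± 0.18 in RBC and 10.90 ± 0.29 in nRBC, and COX19 was 8.42 ± 0.14 and 7.96 ± 0.20 (SD, n = 4 each). COX17, a copper chaperone, read 9.82 to 11.09 on the blood arrays but was Present on only 1 RBC and 2 nRBC arrays.

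**Figure D3:**
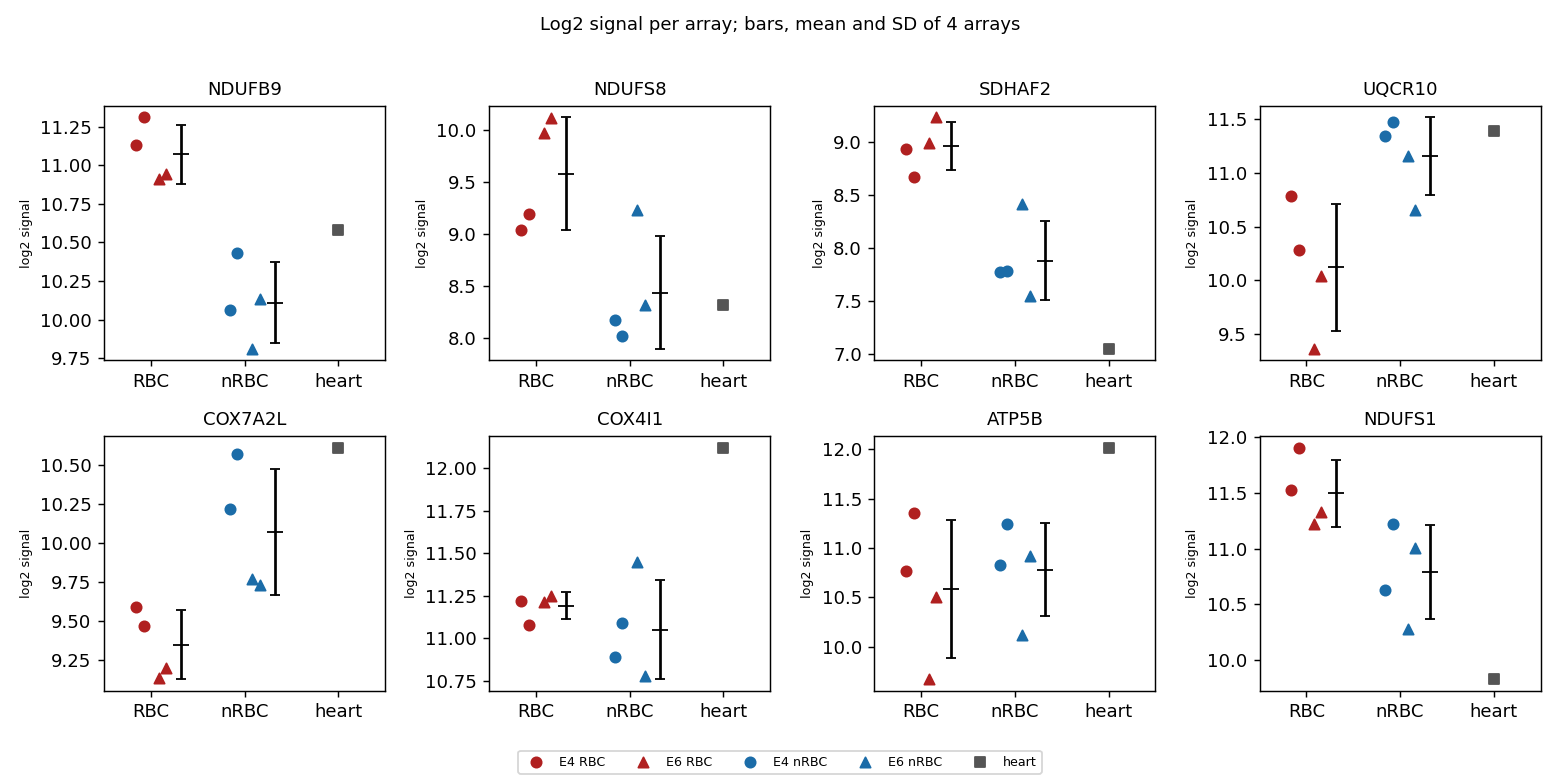
Log2 signal of 8 genes on each array, with RBC in red, nRBC in blue and heart in grey, circles for E4 and triangles for E6, and the mean and SD of 4 arrays as bars. Each panel has its own axis that does not start at 0. NDUFB9, SDHAF2 and COX7A2L separate the fractions without overlap, COX4I1 and ATP5B overlap, and the heart array is at the top for COX4I1 and ATP5B and at the bottom for SDHAF2 and NDUFS1.

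Some of these genes were measured by several probe sets. For 40 genes there were 67 further probe sets, of which 0 passed the limma test. At an unadjusted p under 0.05, 3 of all 154 probe sets of these genes were higher in nRBC and 18 lower. Over all probe sets the shares were 10.2% and 9.39%. Among the 10 genes with several probe sets Present on all blood arrays, ATP5J2 and ATP5O gave differences of opposite sign, and the range between the probe sets of a gene had a median of 0.29 and reached 0.98 for ATP5O.

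Stage was compared within each fraction on 2 arrays against 2. With limma, 0 of the 87 genes passed for E6 against E4 in RBC, in nRBC or for the difference of these contrasts, and neither did any of all probe sets (0.0%). At an unadjusted p under 0.05 there was 1 gene lower at E6 in RBC and 0 higher, where 4.26% and 3.69% of all probe sets were. In nRBC there were 0 lower and 0 higher (2.09% and 2.32%), and for the difference of the contrasts 0 and 0 (2.55% and 2.74%). The median difference was -0.10 in RBC and -0.20 in nRBC, beside 0.02 and -0.01 over all probe sets. In RBC 53 of 87 genes were below 0 (49.1% of all probe sets) and in nRBC 64 (50.6%). The RBC count was 43 without E6 RBC replicate 1, and the nRBC count was 53 without either E6 nRBC array. The sign of the RBC median depended on scaling, being 0.01 with median scaling, where the median of all probe sets was 0.44. Median scaling also brought the medians of complexes I and IV to 0.00 and 0.19.

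The gene with the low unadjusted p was COX18, which inserts a subunit of complex IV into the inner membrane. It read 8.70 and 8.96 on the E4 RBC arrays and 7.14 and 6.30 on the E6 RBC arrays, while in nRBC it read 8.33 and 7.42 at E4 and 5.69 and 8.05 at E6. The RBC arrays separated by stage and the nRBC arrays did not. The RBC difference was -2.11 (SE 0.85, 95% interval -4.11 to -0.11), with an adjusted p of 0.605 (limma), and it was the lowest of the 87 genes.

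By class, the stage medians leaned to E4 in RBC for complexes III and V, and in nRBC for complex III and the assembly factors, followed by complex V. In RBC the median difference was -0.38 over complex III, with 7 of 8 genes below 0, and -0.43 over complex V, with 8 of 13 below 0. In nRBC it was -0.32 over complex III (8 of 8 below 0), -0.28 over the assembly factors (17 of 22) and -0.24 over complex V (10 of 13). Much of this rested on replicate 1 of E6. Without it the complex V median was -0.01 in RBC, while that of complex III stayed at -0.38, and in nRBC the medians became -0.10, -0.02 and -0.04. Without E6 nRBC replicate 2 complex III was -0.50 and complex V -0.45 in nRBC. ATP5B read 10.77 and 11.36 on the E4 RBC arrays and 9.67 and 10.50 on the E6 RBC arrays. ATP5G3 read 12.67 and 12.82 at E4 and 11.89 and 11.88 at E6 in RBC, a difference of -0.86 (95% interval -1.98 to 0.25, adjusted p = 0.710, limma). NDUFS8 went the other way, with an RBC difference of 0.93 (-0.30 to 2.16, adjusted p = 0.720, limma).

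In nRBC the genes with the lowest p were UQCRFS1, ATP5O and NDUFA5. UQCRFS1 differed by -0.92 (95% interval -2.22 to 0.37), ATP5O by -0.70 (-1.84 to 0.44) and NDUFA5 by -0.69 (-1.86 to 0.48), each with an adjusted p of 1 (limma). The UQCRFS1 difference moved to -0.36 when the array farthest from the rest, E6 nRBC replicate 1, was left out, and to -1.47 without E6 nRBC replicate 2. E6 nRBC replicate 1 was the lowest nRBC array for 35 of the 87 genes and E6 nRBC replicate 2 for 31, against 11 and 10 for the E4 nRBC arrays. The same E6 arrays were the highest nRBC array for 24 and 11 genes, against 28 and 24 for the E4 nRBC arrays. Replicate 1 of E6 was thus often at either end. E6 nRBC replicate 1 also had the highest GAPDH ratio, 12.7, and its part in these values was not tested. The contrast between the fractions in their stage difference was widest, among genes Present on some blood array, for NDUFS4 (-1.36, 95% interval -3.54 to 0.82) and ATP5G2 (1.27, -0.63 to 3.17), each with an adjusted p of 1 (limma).

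**Figure D4:**
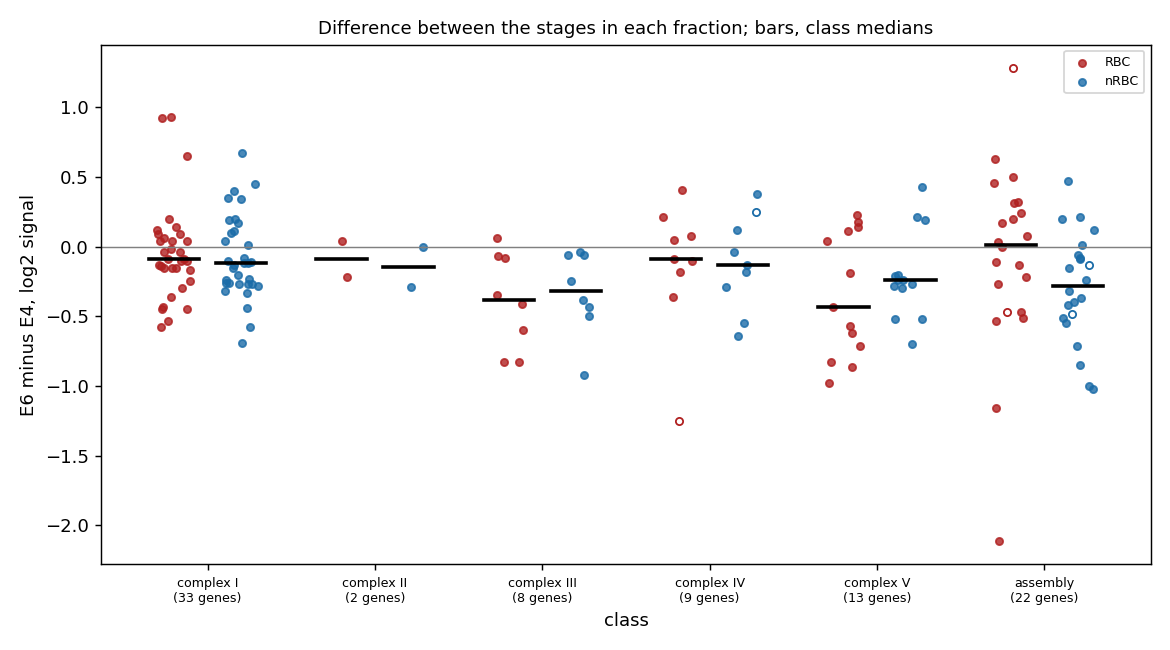
Difference E6 minus E4 in log2 signal for each gene, by class, in RBC (red) and nRBC (blue), with class medians as bars. White-filled points were Present on no blood array. The complex III and V medians are the lowest in RBC, -0.38 and -0.43, and COX18 is the lowest point at -2.11.

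The heart array had no replicate, so its values are given with no test. It lay above every blood array for 27 of 87 genes (31.0%), against 14.5% of all probe sets and 12.5% of those Present on all blood arrays. It lay below every blood array for 19 (21.8%), against 18.3% and 32.6%, and within their range for 41. The probe set of each gene was chosen by its blood signal without the heart, which can tilt these counts toward blood. Of all 154 probe sets of these genes the heart was above every blood array for 26.0% and below for 18.2%. The 27 include COX14, which was Present on no array. Of the 65 structural subunits 23 (35.4%) were above every blood array and 9 below, while of the 22 assembly factors 4 were above and 10 below. The 10 assembly factors below include COX17 and SDHAF1, neither of them Present on the heart array. Without quantile normalization 11 genes (12.6%) were above and 5 below, beside 13.1% and 11.5% of all probe sets. The share of assembly factors below was then 18.2%, where it had been 45.5%.

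The genes in the set from complexes II and III stood highest in the heart, with SDHB and SDHC of complex II not read. SDHA and SDHD of complex II and 5 of 8 genes of complex III were above every blood array. None of these 10 genes was below, and the complex medians of heart minus RBC were 0.85 and 0.77. These medians stayed between 0.70 and 1.03 under the other scalings tried. Without quantile normalization, however, only 1 gene of complex II and 3 of complex III were above every blood array. The median was 0.39 over complex V, with 6 of 13 genes above and 1 below, and -0.03 over complex IV, with 2 of 9 above and 0 below. Over complex I it was -0.21, with 8 genes above and 8 below, and over the assembly factors -0.65. Over all probe sets heart minus RBC was -0.22. Against the nRBC mean, the medians were 0.96, 0.77, 0.40, 0.11, 0.27 and -0.22 for complexes II, III, V, IV and I and the assembly factors, beside -0.04 over all probe sets. The complex I and IV medians against RBC turned sign under at least 1 other scaling, and the assembly median against nRBC became 0.09 with median scaling.

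The largest differences from RBC were in UQCRB, a small subunit of complex III, in ATP5G1 and in ATP5B. UQCRB read 8.29 in the heart and 6.38 to 7.58 on the blood arrays, 1.58 above the RBC mean and 1.25 above the nRBC mean. ATP5G1 read 12.08 in the heart and 9.77 to 11.25 in blood, 1.45 and 1.37 above the means. ATP5B read 12.02 against 9.67 to 11.36, which was 1.44 and 1.24 above the means, or 2.71-fold and 2.36-fold. UQCR10 and NDUFA8 were 1.28 and 1.26 above the RBC mean, and UQCR10 only 0.23 above the nRBC mean.

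SDHD, UQCRC1 and COX4I1 were also at the top in the heart. SDHD read 10.55 against 9.23 to 9.71 in blood, UQCRC1 13.19 against 11.24 to 12.37, and COX4I1 12.12 against 10.78 to 11.45. SDHD was 1.13 and UQCRC1 1.18 above the nRBC mean. Of the other genes with tissue isoforms, COX7A2L (10.61 against 9.14 to 10.57 in blood) and ATP5G3 (13.10 against 11.88 to 12.90) also lay above every blood array, by narrow margins. COX6A1 (10.22), COX8A (9.03) and NDUFA4 (10.78) lay within the blood range, as did ATP5G2, which was not Present on the heart array.

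The lowest heart values were mostly of assembly factors. NDUFAF8, a partner of NDUFAF5, read 6.13 in the heart and 6.96 to 8.72 in blood, with a heart minus RBC difference of -1.99 and a heart minus nRBC difference of -1.17. SDHAF2 read 7.05, and its heart minus RBC difference was -1.91 and its heart minus nRBC difference -0.83. NDUFAF5 read 6.81, with differences of -1.83 and -0.89. COX16 and NDUFAF2 gave -1.01 and -0.97 against nRBC. COX17 gave -1.91 against RBC but was not Present on the heart array. NDUFS1 was the only structural subunit in this list, at 9.83 in the heart and 10.28 to 11.91 in blood, a difference of -1.66 from RBC. A further probe set of NDUFS1, Present on all blood arrays, read 10.67 in the heart against an RBC mean of 10.77, so the probe sets of this gene disagreed about the heart.

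**Figure D5:**
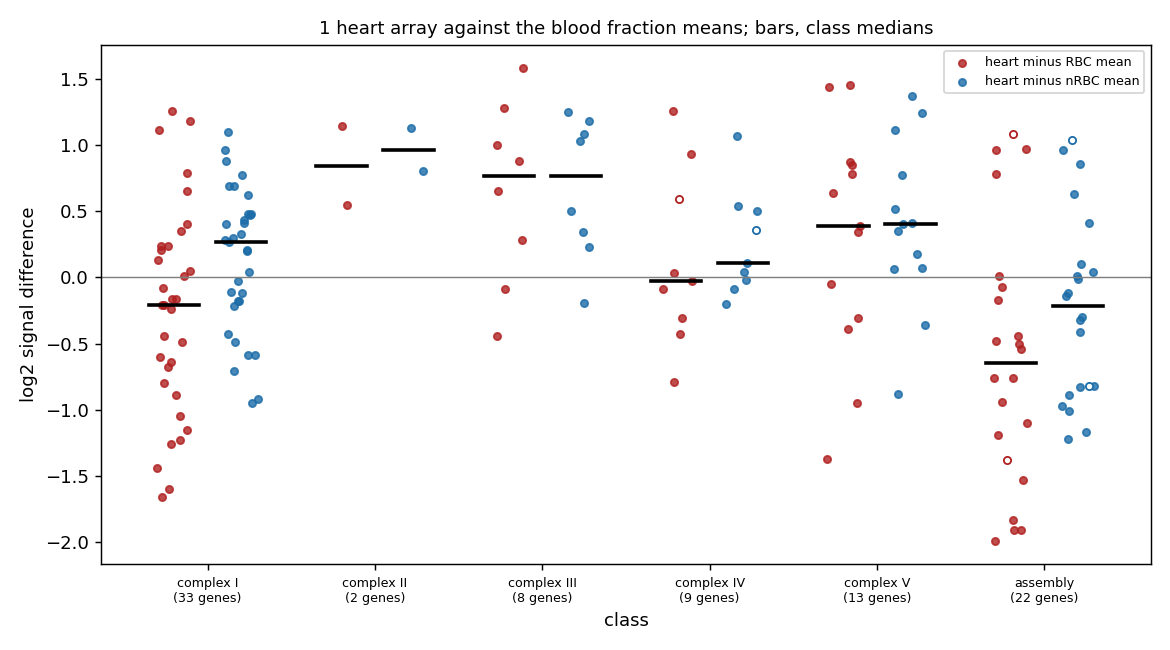
Log2 signal on the 1 heart array minus the RBC mean (red) and minus the nRBC mean (blue) for each gene, by class, with class medians as bars. White-filled points were Present on no blood array. The bars are highest for complexes II and III, 0.85 and 0.77 against RBC, and lowest for the assembly factors, -0.65.

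Other mitochondrial genes were read from lists by function, with 1 probe set per gene, and their counts stand beside 4.56% of all probe sets higher and 0.809% lower in nRBC. The citric acid cycle list also held PDHB, DLAT and PDHX of pyruvate dehydrogenase and PC, pyruvate carboxylase. In it 0 of 15 genes passed between the fractions (limma), with 1 lower at an unadjusted p under 0.05 and a median difference of -0.03. Of 18 electron carrier and coenzyme Q genes 0 were higher and 1 lower, COQ9, which helps coenzyme Q synthesis. COQ9 read 8.22, 8.19, 7.55 and 8.0 in RBC and 6.56, 6.43, 6.36 and 6.63 in nRBC, a difference of -1.49 (SE 0.33, adjusted p = 0.0324, limma). Cytochrome c (CYCS) did not pass, at 10.43 ± 0.84 in RBC and 10.81 ± 0.69 in nRBC (SD, n = 4 each, adjusted p = 0.743, limma).

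Of 16 genes for mitochondrial DNA upkeep and biogenesis, TFB2M and TOP1MT were higher in nRBC, where 4.56% of all probe sets were. TFB2M, a transcription factor of mitochondrial DNA, read 8.07, 8.04, 7.72 and 7.20 in RBC and 9.71, 8.67, 10.85 and 9.91 in nRBC (difference 2.02, SE 0.50, adjusted p = 0.0496, limma). TOP1MT, the mitochondrial topoisomerase, was Present on no RBC array and on all nRBC arrays, and about 15-fold higher in nRBC against a floor (adjusted p = 0.0027, limma). That fold sets the nRBC mean against, on each RBC array, the higher of the lowest Present signal and the probe set's own signal. The lowest Present signal is that of any probe set, so the fold is not a strict bound.

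Single genes passed in 3 further lists, where 4.56% of all probe sets were higher and 0.809% lower. In the list of import and inner membrane genes, MFN1, which fuses outer membranes, was the only 1 of 22 to pass, higher in nRBC by 1.61 (SE 0.36, adjusted p = 0.0352, limma). In the mitophagy list GABARAPL2 was the only 1 of 18, lower in nRBC (difference -1.83, SE 0.39, adjusted p = 0.0278, limma). Of 43 genes of the large mitochondrial ribosomal subunit MRPL2 was lower (-1.44, SE 0.34, adjusted p = 0.0408, limma), and of 24 of the small subunit 0 passed. At an unadjusted p under 0.05, 6 and 2 were lower, where 9.39% of all probe sets were. In these 2 lists 86.0% and 75.0% of genes were below 0, beside 75.9% of the 87 chain genes. The shares without overlap, nRBC below RBC, were 23.3% and 20.8%, beside 21.8% of the chain genes. In 25 further assembly genes and 15 carriers and pores 0 passed (limma), with 2 and 0 lower and 0 and 0 higher at an unadjusted p under 0.05. The median differences were -0.40 and -0.30 for the ribosomal subunits, -0.35 for the further assembly genes and 0.13 for the carriers. By stage in RBC, 13 of 15 genes of the citric acid cycle list were below 0 (median -0.60) and 14 of 16 DNA and biogenesis genes (median -0.61). Over all probe sets 49.1% were below 0 (median 0.02). Of the 2 lists, 2 and 3 genes were Present on no blood array, and no other scaling is given for these counts.

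Markers of other cells moved with the fraction. In nRBC 6 of 9 thrombocyte, 9 of 15 leukocyte, 5 of 14 endothelial, 9 of 25 cardiac muscle and 11 of 18 fibroblast markers were higher (limma), where 4.56% of all probe sets were. The erythroid markers leaned the other way, as most of the chain genes did. Of 15, 12 were below 0 in nRBC minus RBC with a median of -0.67, beside -0.20 over all probe sets, and 1, BLVRA, was lower by the test. SPTB, EPB42, FECH and ANK1, genes of the red cell membrane skeleton and of haem synthesis, gave -1.43, -1.15, -1.14 and -1.13 without passing. LMO2, TAL1, SLC4A1 and TFRC gave -1.01, -0.77, -0.67 and -0.19, and RHAG went the other way at 0.49. On E6 nRBC replicate 1 ANK1 read 12.12, above every RBC array (10.89 to 11.96). The 5 globins gave -0.15 to 0.13, and as the brightest genes of the list they set most of its summed signal. They read 12.97 to 13.77 on the blood arrays, and whether signals this bright still follow RNA level was not tested. By quantitative PCR the study found hemoglobins significantly higher in RBC, so the globin values here do not show equal levels. The summed log2 signal of the thrombocyte list was 6.86 to 7.91 on RBC and 13.17 to 14.03 on nRBC arrays, and that of the leukocyte list 7.99 to 9.09 and 12.28 to 13.16. The cardiac muscle list gave 8.51 to 8.70 on RBC, 10.74 to 12.59 on nRBC and 16.10 on the heart array, and 8 of its 25 genes were Present on no blood array. The fibroblast list gave 9.98 to 11.98, 12.39 to 13.83 and 15.12, and the endothelial list 8.42 to 9.68, 9.58 to 10.39 and 11.00. No endothelial marker and only 1 of 9 thrombocyte markers was Present on any RBC array, so those RBC sums are largely signals not called Present. Of the 9 leukocyte markers called higher, ITGB2 and CYBB were Present on no array. The part of the cells behind these lists in the respiratory chain values was not tested.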

How the data were processed

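Gene expression was measured on 9 Affymetrix chicken arrays. The authors amplified the RNA, hybridized it and deposited for each probe set a MAS5 signal, a linear intensity not scaled between arrays, with a detection call that was read here as Present or not. Which MAS5 release was used is not stated in the labels or the methods. The log2 values that the authors deposited in a second table are the same signals centred on each array and served as an alternative. Per the study's methods, the signals were log2 transformed and then quantile normalized, here across the 8 blood arrays. The 96 control probe sets were left out, 11 signals of 0 were set to 0.1, and the signals of the heart were given the quantiles of the blood arrays.

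Symbols came from the platform annotation, in which 27168 probe sets have 1 symbol, 177 several and 11094 none. Gene IDs of 86 of the 87 genes were found in the reference gene table. The genes and lists were chosen with earlier results of these data known. Fractions were compared as 4 against 4 arrays, and stages in a model with 4 group means, by lmFit and eBayes of limma 3.58.1 in R 4.3.3, with Benjamini-Hochberg adjustment over all 38439 probe sets and a threshold of 0.05. SAM, which the methods name, was not run. The number of arrays limits the precision, and p-values for the stages measure the spread between duplicate arrays from separate pools. The fraction test had no term for stage, so the spread it used also holds any difference between E4 and E6. Tables were made with Python 3.11.15 and pandas 2.3.3, and the fit was tested on simulated data.

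Named genes were those passing, in each class those with the brightest probe sets and the lowest p, isoform families, the lowest p by stage and the extremes in the heart (39 genes). Genes without overlap between fractions were added after their values were seen. The alternatives were other scalings, 16 added to each signal, a detection filter, the deposited log2 values, an intensity trend, the methods' t-test, array scale or replicate number as a block, another probe set per gene and leaving out each array. The replicate numbers come from the labels, and whether fractions share pools is not stated. The numbers were not taken as pairs, since no source ties them to a shared pool or day.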

Additional observations from a re-analysis of the deposited data

Results flagged for a closer look

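In 7 of 96 sets of 4 arrays checked, for 48 genes in each fraction, 1 array stood apart from the other 3 by Dixon's rule, which flags about 1 in 20 sets (5%) by chance. On E6 nRBC replicate 1, ATP5G3 read 12.42 (others 12.83 to 12.90), NDUFA6 10.24 (10.04 to 10.05) and NDUFAF7 5.44 (6.22 to 6.37). On E4 nRBC replicate 1, NDUFS6 read 11.73 (12.38 to 12.40) and NDUFV2 9.61 (9.38 to 9.41). On the RBC side, NDUFS4 read 6.58 on E4 RBC replicate 2 (8.10 to 8.38) and UQCRB 7.58 on E4 RBC replicate 1 (6.38 to 6.45).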

How the results depend on the processing

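For nRBC against RBC, 22 alternatives were run and 18 for the stages. The count of genes passing stayed at 0 higher in all 22, and at 0 lower except that 7 were lower with 16 added (NDUFAF5, NDUFAF7, NDUFB4, NDUFB9, NDUFS7, NDUFV2 and SDHAF2, 2.57% of all probe sets lower), 5 with dim probe sets removed (those with under 2 Present calls in blood), which were NDUFAF5, NDUFAF7, NDUFB4, NDUFB9 and SDHAF2 (4.84%), then 2 with an intensity trend (NDUFB9 and SDHAF2, 1.83%) and 3 by the methods' t-test after Benjamini-Hochberg (NDUFB9, NDUFS7 and NDUFV2, 1.06%). Unadjusted, that t-test gave 24 lower and 2 higher, beside 10.1% and 9.60% of all probe sets. Deviations of same-numbered arrays from their group means correlated at 0.0825 at E4 and -0.0459 at E6 over all probe sets, and at 0.413 and -0.253 over those Present on all blood arrays. With the replicate block the counts were 0 and 0 and the median -0.28, and with the E6 nRBC arrays crossed in the block, chosen after seeing the data, 0 and 0. Stage counts stayed at 0 throughout.

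Without quantile normalization the medians were -0.04 for the fractions, and -0.51 and -0.90 for the stages in RBC and nRBC. Over all probe sets the same medians were 0.02, -0.08 and -0.67, so much of the nRBC stage value was shared by the whole array. The median was -0.33 for the difference of the stage contrasts. For heart minus RBC it was 0.21, which reversed, beside 0.09 over all probe sets. The genes without overlap were then 0 below (1.64% of all probe sets) and 0 above, and the heart was above all blood arrays for 11 and below for 5. Median scaling gave 0.01 for the RBC stage median and 0.04 for heart minus RBC, both reversed, -0.15 for the stage difference, 0.37 for heart minus nRBC and 2 genes above without overlap, as did the choice of the most often Present probe set (2). With array scale as a block the nRBC stage median was -0.09.

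Signs of single genes near 0 reversed. Without quantile normalization ATP5G2 was 0.09, COX6A1 0.02, COX8A 0.06 and NDUFA12 0.03. Median scaling gave ATP5G1 -0.03 and UQCRHL -0.13, and the scale block COX6C 0.01 and NDUFA12 0.04. Within the 5 arrays with many signals under 1, COX6A1 was 0.04 and NDUFA12 0.03, and within the 3 with few, COX6C was 0.22, NDUFA12 0.06, UQCRC1 0.15 and UQCRHL -0.05, both splits chosen after seeing the data. The causes were not tested.

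Leaving out 1 array at a time gave a fraction median of -0.36 to -0.25, RBC stage medians of -0.22 to 0.02 (0.02 without E6 RBC replicate 1), stage differences of -0.14 to 0.05, and 20 to 25 genes below and 1 to 4 above without overlap. It gave SDHD -0.08 to 0.08, ATP5G2 -0.34 to 0.12, ATP5F1AZ -0.28 to 0.18, ATP5G1 -0.20 to 0.29, NDUFA12 -0.14 to 0.13, COX6C -0.13 to 0.12 and UQCRC1 -0.29 to 0.08. With fewer arrays the fractions separate more easily, and the counts without overlap have no share over all probe sets beside them.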
